A study of Mus musculus with 15 samples.

Results

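Agonist CD40 antibody (CD40 Ab) given alone was compared with control treatment in subcutaneous tumors of the mouse pancreatic ductal adenocarcinoma (PDA) line PDA30364. The comparison used the 4 arrays labelled CD40 Ab and the 4 arrays labelled control, 8 of the 15 arrays in the series. CD40 Ab mice had received vehicle by daily dosing plus the anti-CD40 Ab, a chimeric agonist of mouse IgG1 isotype. Control mice had received the same vehicle plus control IgG. Injections of either antibody fell on days 3, 5 and 7 of treatment, with a last dose 1 day before the tumors were taken. All 8 mice were C57BL/6-Ly5.1 animals, 6 to 12 weeks old by the sample labels, and carried tumors from cells injected in PBS and Matrigel into the flank. Tumors were taken on day 26 after inoculation. PDA30364 is 1 cell line, established from a tumor of a genetically engineered mouse model of PDA that carries mutant Trp53, so the 8 tumors share their tumor cells and differ in the host animal. The 7 other arrays came from mice given the MEK inhibitor GDC-0623 at 30 mg/kg, with CD40 Ab (Combination, 4 arrays) or with control IgG (MEKi, 3 arrays), and served only to give the CD40 Ab effect on a second background.

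CD40 is a receptor of the tumor necrosis factor receptor family on B cells, dendritic cells, macrophages and some non-immune cells. Its ligand CD40L sits on activated CD4 T cells, and an agonist antibody takes the place of that ligand. Signals from CD40 run through TRAF adaptors to NF-kB and are known to raise costimulatory molecules, antigen presentation and interleukin-12 in antigen-presenting cells, which in turn prime T cells that make interferon gamma. Interferon gamma acts through transcription factors such as IRF1 on genes that carry the GAS and ISRE promoter elements, among them the peptide transporter and immunoproteasome genes and the guanylate-binding proteins.

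Of 18193 genes, each read from its brightest probe set with a single gene symbol, 184 rose (1.01% of genes) and 9 fell (0.0495%) in CD40 Ab tumors against control tumors at an adjusted p under 0.05 (limma, Benjamini-Hochberg adjustment over 45037 probe sets). At the level of probe sets, 297 rose and 26 fell. The 5 largest rises were those of Ubd, Jchain, Ms4a4b, Chil1 and Igkv8-30. Of the 184 genes, 47 rose by 2-fold or more, with a median log2 fold change of 0.75 and a range of 0.31 to 2.28. Of the 9 genes that fell, 1 fell by 2-fold or more. The median log2 fold change of all 18193 genes was 0.00, and 48.5% of genes had a positive value.

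**Figure D1:**
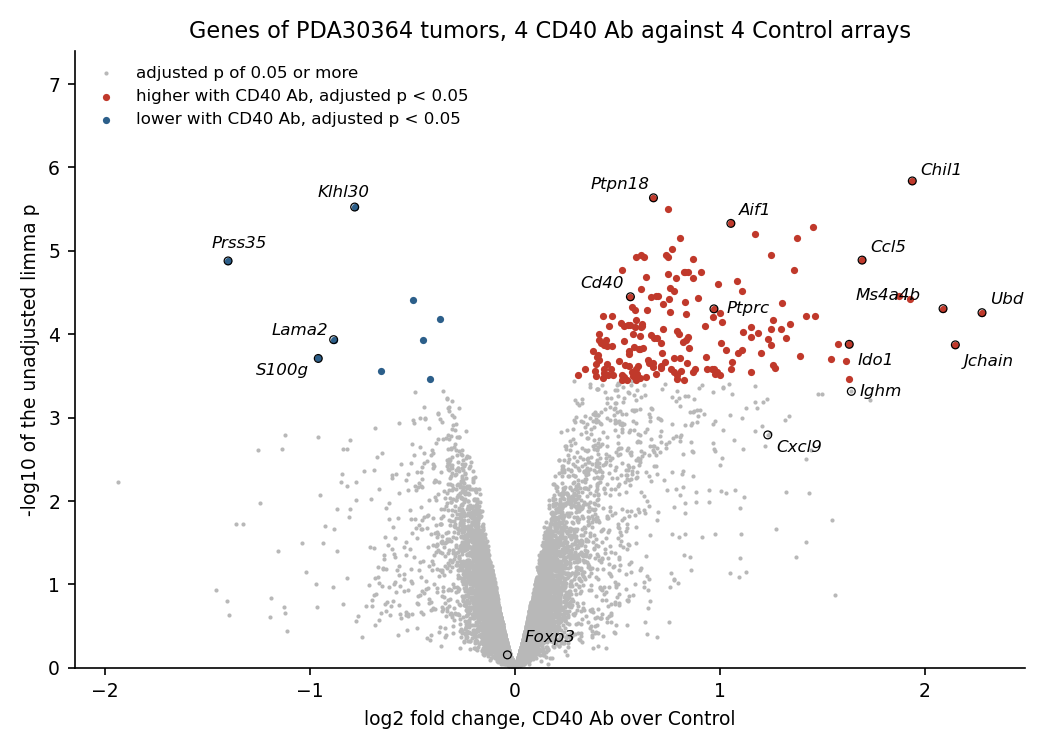
Log2 fold change of CD40 Ab over control tumors (x axis) against -log10 of the unadjusted limma p (y axis) for 18193 genes, with genes past an adjusted p of 0.05 in red (184 higher) and blue (9 lower). The called genes lie mostly to the right of 0, from Myd88 at 0.31 to Ubd at 2.28, while Ighm and Cxcl9 lie to the right below the threshold and Foxp3 lies at -0.04.

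The adjusted p-values of the called probe sets ran from 0.0186 to just under 0.05, and none passed 0.01. Leaving out CD40 Ab replicate 4, or control replicate 1, 2 or 3, gave 0 calls, with 3812 to 4096 probe sets at an unadjusted p under 0.05 in those fits. Without CD40 Ab replicate 1 or 3, 90 and 91 genes were called, and without CD40 Ab replicate 2 or control replicate 4, 188 and 197. A fit that took its spread from all 15 arrays called 18 genes, all of them among the 193. A p-value here measures the spread between tumors of different animals. The arrays of the 2 groups did not overlap for any of the 193 called genes, and in all genes 853 (4.69%) lay wholly higher and 546 (3.00%) wholly lower in CD40 Ab than in control tumors.

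**Figure D2:**
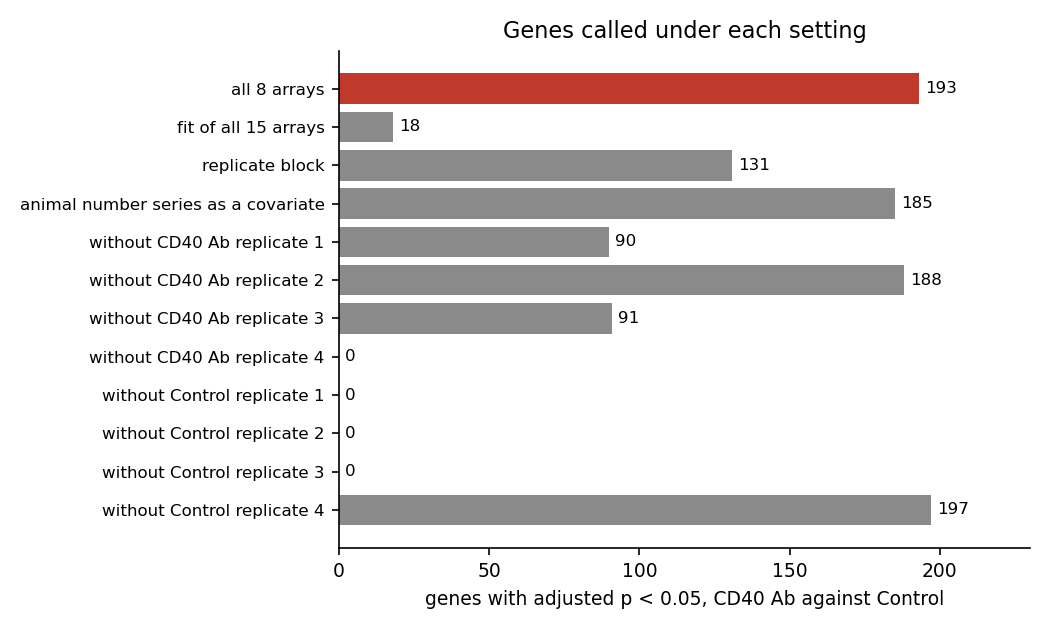
Number of genes with an adjusted p under 0.05 for CD40 Ab against control (bars, x axis starting at 0) with all 8 arrays (193, red), under 3 other designs and after leaving out each array in turn (grey). The count is 0 without CD40 Ab replicate 4 or control replicate 1, 2 or 3, and 90 to 197 without each of the other 4 arrays.

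The animal numbers in the labels fall into a range under 10000 (2 CD40 Ab and 3 control mice) and a range from 10000 (2 CD40 Ab mice and 1 control mouse). The genes that rose had a median log2 difference of 0.78 in the animals under 10000 and 0.58 in those from 10000, where the only control was replicate 4. With the range as a covariate 185 genes were called, 146 of them among the 193, and in the animals under 10000 alone 8. The array quality measures overlapped between the groups. The 18S rRNA control probe sets averaged 12.99 ± 0.1 in CD40 Ab and 12.86 ± 0.14 in control tumors (SD, n = 4 each, exact permutation p = 0.171), and the 3' to 5' differences of Gapdh and beta-actin overlapped (exact p = 1 and 0.429, 2-sided, 5 measures tested). The first principal component, 27.2% of the variance of the 8 arrays, put all CD40 Ab tumors (10.25 to 25.41) on the other side of 0 from all control tumors (-24.54 to -14.60, exact p = 0.0286, the smallest that 4 against 4 can give, adjusted 0.143).

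Promoter sequence was read for the genes that rose, from the RefSeq windows of build GRCm38.p6 that run from 250 bases before to 50 bases after the start of a gene. Of the 184 genes, 136 had such a window. Windows were searched on both strands for a 9-letter core of the interferon-stimulated response element (ISRE, TTCNNTTTC), for the interferon gamma-activated site (GAS, TTCNNNGAA) and for a kB core bound by NF-kB proteins (GGNNNTTCC). A gene with more than 1 window was counted once if any of its windows matched, so such a gene had more chances to match. The GAS letters were present for 30 of the 136 genes (22.1%), against 1239 of the 14452 measured genes with a window (8.57%). The ISRE core was present in 22 of 136 (16.2%), against 1258 of 14452 (8.70%). The kB core was present in 32 of 136 (23.5%), against 3362 of 14452 (23.3%). These are matches of letters and not measured binding sites, and the ISRE and GAS letters can overlap in part. Both the ISRE core and GAS were found for 5 genes that rose (3.68%), against 178 of all genes with a window (1.23%). These 5 genes were Gbp7, Igtp, Myd88, Ncf1 and Sirpb1a.

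Shown here are 5 windows, written 5' to 3' on the strand of the gene with matched letters in capitals: the gene with the largest rise, 3 genes of the interferon gamma response, and the window that Tap1 shares with Psmb9. In the Ubd window the capitals mark a kB core from base -14, counted from the start of the gene. In Gbp7 they mark GAS letters from -106 and -87 and an ISRE core from -52, in Igtp GAS letters from -45 and an ISRE core, on the opposite strand, from -34, and in Irf1, which has 2 windows of which the first listed is shown, GAS letters from -90. The Tap1 window held none of the 3 motifs, and it shares 275 bases with the window of Psmb9 on the other strand, so both genes, which rose together, start from the same stretch of DNA.
Ubd (chr17:37193642-37193941, + strand): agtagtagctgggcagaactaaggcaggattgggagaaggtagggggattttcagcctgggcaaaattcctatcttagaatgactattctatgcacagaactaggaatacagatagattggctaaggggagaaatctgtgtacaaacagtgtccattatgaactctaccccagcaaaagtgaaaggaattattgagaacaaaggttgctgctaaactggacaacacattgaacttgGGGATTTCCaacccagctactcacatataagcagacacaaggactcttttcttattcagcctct
Gbp7 (chr3:142530086-142530385, + strand): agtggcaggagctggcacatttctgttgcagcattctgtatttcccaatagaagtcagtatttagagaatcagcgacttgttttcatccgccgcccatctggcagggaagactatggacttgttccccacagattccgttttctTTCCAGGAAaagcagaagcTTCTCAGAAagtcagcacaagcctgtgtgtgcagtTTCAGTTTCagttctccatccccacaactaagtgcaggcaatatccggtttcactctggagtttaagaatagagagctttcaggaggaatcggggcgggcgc
Igtp (chr11:58199306-58199605, + strand): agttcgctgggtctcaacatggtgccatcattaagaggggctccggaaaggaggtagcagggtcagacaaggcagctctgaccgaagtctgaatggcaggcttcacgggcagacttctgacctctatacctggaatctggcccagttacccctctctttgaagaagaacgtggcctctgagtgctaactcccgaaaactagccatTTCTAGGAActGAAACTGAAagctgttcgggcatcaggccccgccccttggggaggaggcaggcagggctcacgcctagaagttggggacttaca
Irf1 (chr11:53769764-53770063, + strand): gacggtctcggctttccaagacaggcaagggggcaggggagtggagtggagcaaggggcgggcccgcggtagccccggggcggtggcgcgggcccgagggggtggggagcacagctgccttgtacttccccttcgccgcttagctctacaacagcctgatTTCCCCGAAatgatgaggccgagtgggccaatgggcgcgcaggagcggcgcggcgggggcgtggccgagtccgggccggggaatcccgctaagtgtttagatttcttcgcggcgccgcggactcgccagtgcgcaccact
Tap1 (chr17:34187306-34187605, + strand): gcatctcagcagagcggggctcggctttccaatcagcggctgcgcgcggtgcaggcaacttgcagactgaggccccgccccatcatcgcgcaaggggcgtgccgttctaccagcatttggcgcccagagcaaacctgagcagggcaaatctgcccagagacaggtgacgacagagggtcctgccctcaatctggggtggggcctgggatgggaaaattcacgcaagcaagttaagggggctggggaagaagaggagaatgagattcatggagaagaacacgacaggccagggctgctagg

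The receptor itself rose. Cd40, the target of the antibody, read 6.68, 6.37, 6.50 and 6.46 on the log2 scale in CD40 Ab tumors 1 to 4, against 5.99, 5.84, 6.02 and 5.90 in control tumors 1 to 4. All CD40 Ab tumors lay above all control tumors, by 1.48-fold (log2 fold change 0.57, SE 0.08, adjusted p = 0.0225). The other probe sets of Cd40 missed the threshold, with log2 fold changes of 0.68 and 0.46 (adjusted p = 0.171 and 0.159). The ligand gene Cd40lg did not differ beyond its spread, at 4.52 to 4.55 in CD40 Ab and 4.48 to 4.82 in control tumors (log2 fold change -0.06, 95% interval -0.23 to 0.12).

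Of 21 measured genes of CD40 and NF-kB signalling, Cd40 alone passed, and the median log2 fold change of the list was 0.10. In 5 of the 21 the CD40 Ab tumors lay wholly higher, where 4.69% of all genes did so, and the mean level of the list was 7.85 to 7.97 in CD40 Ab and 7.74 to 7.80 in control tumors, without overlap. Relb, the NF-kB subunit of the noncanonical branch, averaged 7.73 in CD40 Ab and 7.54 in control tumors (log2 fold change 0.19, 95% interval 0.02 to 0.37, adjusted p = 0.442). In genes of dendritic cell maturation, which CD40 signals are known to raise, 0 of 14 passed, with a median of 0.17, while 5 of the 14 had an unadjusted limma p under 0.05, as 11.5% of all genes did, led by the chemokine gene Ccl22 (log2 fold change 1.17, adjusted p = 0.0545). Cd86, a costimulatory ligand of CD28, read 6.71 to 7.04 in CD40 Ab and 6.29 to 6.56 in control tumors. These ranges did not overlap, and the difference missed the threshold (log2 fold change 0.45, SE 0.09, adjusted p = 0.0699). Ccr7, the receptor that guides mature dendritic cells to lymph nodes, read 6.06 to 6.84 in CD40 Ab and 5.15 to 5.79 in control tumors (log2 fold change 0.86, adjusted p = 0.0941). Il12b, the interleukin-12 subunit gene, overlapped between the groups (2.91 to 3.88 in CD40 Ab, 2.82 to 3.19 in control tumors). Of 12 dendritic cell subset genes only Irf8, a transcription factor of dendritic cells and macrophages, rose (log2 fold change 0.88, adjusted p = 0.0442), and the list median was 0.01. The CD40 Ab tumors lay wholly higher in 4 of the 12, where 4.69% of all genes did so, and 6 of the 12 had a positive value.

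**Figure D3:**
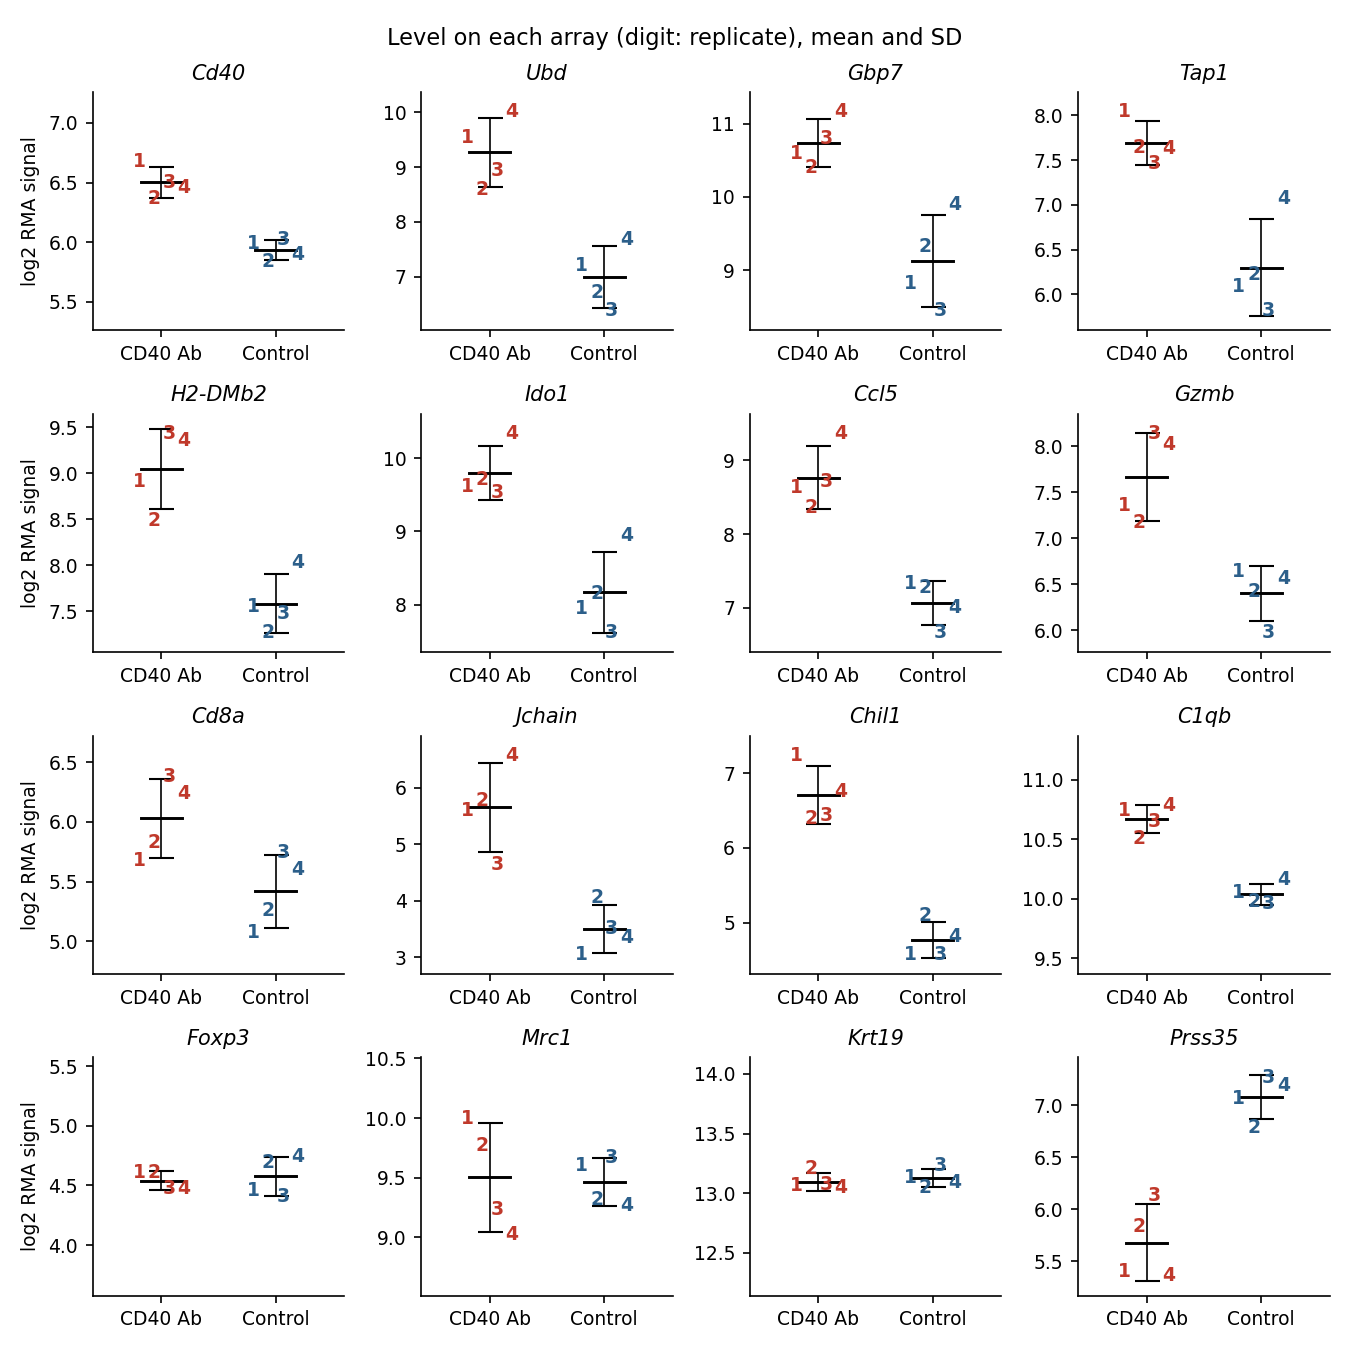
Log2 RMA signal (y axes, each with its own range) of 16 genes on each of the 4 CD40 Ab (red, left) and 4 control arrays (blue, right), with digits for replicates, long bars for means and whiskers for the SD. Cd40, Ubd, Gbp7, Tap1, H2-DMb2, Ido1, Ccl5, Gzmb, Jchain, Chil1 and C1qb lie wholly higher in CD40 Ab tumors and Prss35 wholly lower, while Cd8a, Foxp3, Mrc1 and Krt19 overlap.

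Many genes of the MHC class I pathway rose. Of 14 measured genes 7 passed, where 1.01% of all genes did, namely Tap1, Tap2, Psmb8, Psmb9, Psmb10, Erap1 and H2-M3, and the median log2 fold change of the 14 was 0.80, against 0.00 over all genes. All 14 lay wholly higher in CD40 Ab tumors, where 4.69% of genes did so. Tap1, a subunit of the transporter that carries peptides into the endoplasmic reticulum, read 8.04, 7.64, 7.46 and 7.63 in CD40 Ab tumors, against 6.09, 6.22, 5.82 and 7.07 in control tumors. Control tumor 4 stood highest among the controls, and the rise was 2.63-fold (log2 fold change 1.39, SE 0.24, adjusted p = 0.0379). In the animals under 10000 the Tap1 difference was 1.80 and in those from 10000 it was 0.47, and its 3 other, dimmer probe sets had log2 fold changes of -0.04 to 0.19 and did not pass. Psmb8, an immunoproteasome subunit, rose by 2.39-fold (SE of the log2 value 0.19, adjusted p = 0.0274) and Tap2, the other subunit of the transporter, by 2.38-fold. Averaged over the probe sets of each gene, the log2 fold change was 0.73 for Psmb8 and 0.39 for Tap1, which did not pass (adjusted p = 0.0649). H2-M3, a nonclassical class I molecule that presents formylated peptides, rose by 1.86-fold (adjusted p = 0.0225). The classical heavy chains and their light chain moved less: B2m read 13.30 to 13.38 in CD40 Ab and 12.75 to 13.15 in control tumors, 1.32-fold apart (adjusted p = 0.0923), and H2-K1 and H2-D1, which share sequence with other class I genes, had log2 fold changes of 0.55 and 0.50 (adjusted p = 0.0827 and 0.0809).

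In the MHC class II pathway 5 of 11 measured genes rose, where 1.01% of all genes did, with a list median of 0.89. H2-DMb2 encodes a chain of the H2-DM peptide exchange factor. Its signal was 8.91, 8.49, 9.43 and 9.36 in CD40 Ab tumors, against 7.55, 7.27, 7.47 and 8.03 in control tumors. CD40 Ab tumors 3 and 4 were the highest, and the rise was 2.77-fold (log2 fold change 1.47, SE 0.22, adjusted p = 0.0262). The partner chain H2-DMa rose by 1.30 on the log2 scale, Ctss, the protease that trims the invariant chain, by 0.59, and Ifi30, a thiol reductase of the class II compartment, by 0.59. Ciita, the master regulator of class II transcription, read 5.59 to 6.53 in CD40 Ab and 4.47 to 5.15 in control tumors (2.23-fold, adjusted p = 0.0456), and the mean over its probe sets gave a log2 fold change of 0.69. The presenting chains themselves did not pass: H2-Aa differed by 0.81 (95% interval 0.43 to 1.18, adjusted p = 0.0746), with a lowest CD40 Ab tumor at 11.47, equal to the highest control tumor. H2-Oa and H2-Ob, the chains of the H2-DO inhibitor that is expressed in B cells, had log2 fold changes of -0.11 and -0.31 (adjusted p = 0.78 and 0.101), the only members below 0.

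Of the 15 largest rises, Ido1, Gbp6 and Gbp7 were in the interferon gamma response list. Ubd, a ubiquitin-like modifier known as FAT10 that interferon gamma and tumor necrosis factor induce, had the largest rise of all called genes. It read 9.55, 8.60, 8.93 and 10.01 in CD40 Ab tumors, against 7.21, 6.71, 6.38 and 7.67 in control tumors, a rise of 4.86-fold (log2 fold change 2.28, SE 0.34, adjusted p = 0.0253). In the interferon gamma response list, 5 of 15 measured genes passed and 13 lay wholly higher, where 1.01% and 4.69% of all genes did so. The list median of 1.04 was the highest of the 38 lists. Gbp7 and Gbp6, guanylate-binding GTPases of host defence, read 10.40 to 11.16 and 10.13 to 11.41 in CD40 Ab tumors, against 8.45 to 9.89 and 8.73 to 9.58 in control tumors. Their rises were 3.06-fold and 2.98-fold (adjusted p = 0.0406 and 0.0332), and a second probe set of Gbp7 passed as well (log2 fold change 1.70, adjusted p = 0.0472). All 5 measured Gbp genes lay wholly higher, of which Gbp2, Gbp3 and Gbp8 did not pass. Igtp, an immunity-related GTPase also known as Irgm3, rose by 1.09 on the log2 scale, and Irf1, the transcription factor that relays interferon gamma, by 0.83 (SE 0.12, adjusted p = 0.0257).

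Ido1, the tryptophan-degrading enzyme that restrains T cells, read 9.61, 9.71, 9.53 and 10.34 in CD40 Ab tumors, against 7.95, 8.15, 7.62 and 8.94 in control tumors. As in all called genes, the groups did not overlap, and the rise was 3.10-fold (log2 fold change 1.63, SE 0.27, adjusted p = 0.0332). Cd274, which encodes the checkpoint ligand PD-L1, read 6.97 to 7.76 in CD40 Ab and 5.97 to 6.64 in control tumors and just missed the threshold (2.06-fold, adjusted p = 0.0529). The chemokine genes Cxcl9 and Cxcl10, which draw CXCR3-bearing T cells, had log2 fold changes of 1.24 (95% interval 0.60 to 1.87) and 1.17 (0.58 to 1.77), both short of the threshold (adjusted p = 0.112 and 0.105). In Cxcl9, CD40 Ab tumor 2 at 11.01 lay below control tumor 4 at 11.07. Ido1 was the single call among the 11 measured immune checkpoint genes, which had a median of 0.31. In 5 of the 11 the CD40 Ab tumors lay wholly higher, where 4.69% of all genes did so.

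Genes of the type I interferon response were higher with fewer calls. Of 23 measured genes 2 passed, the nucleic acid sensor Zbp1 (2.00-fold, adjusted p = 0.047) and Dhx58, a helicase of the RIG-I family (1.96-fold, adjusted p = 0.0442), which did not pass as the mean over its probe sets (log2 fold change 0.55, adjusted p = 0.0772). All 23 had a positive log2 fold change, from 0.33 to 1.01, with a median of 0.66, and 14 lay wholly higher. Over all genes, 1.01% were called higher and 4.69% lay wholly higher. Calhm6, Apol6 and Ifi27l2a, which are in none of the lists, were also among the 15 largest rises. Calhm6, a calcium homeostasis modulator family member, read 5.79 to 7.00 in CD40 Ab and 4.28 to 4.84 in control tumors (3.67-fold, adjusted p = 0.0225). Ifi27l2a, an interferon alpha-inducible gene, read 8.95 to 9.76 in CD40 Ab and 7.78 to 8.23 in control tumors and was among the genes with the smallest adjusted p (2.74-fold, adjusted p = 0.0186). Apol6, an apolipoprotein L family member, read 6.87 to 7.44 in CD40 Ab and 4.55 to 6.10 in control tumors (3.10-fold, adjusted p = 0.0487).

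**Figure D4:**
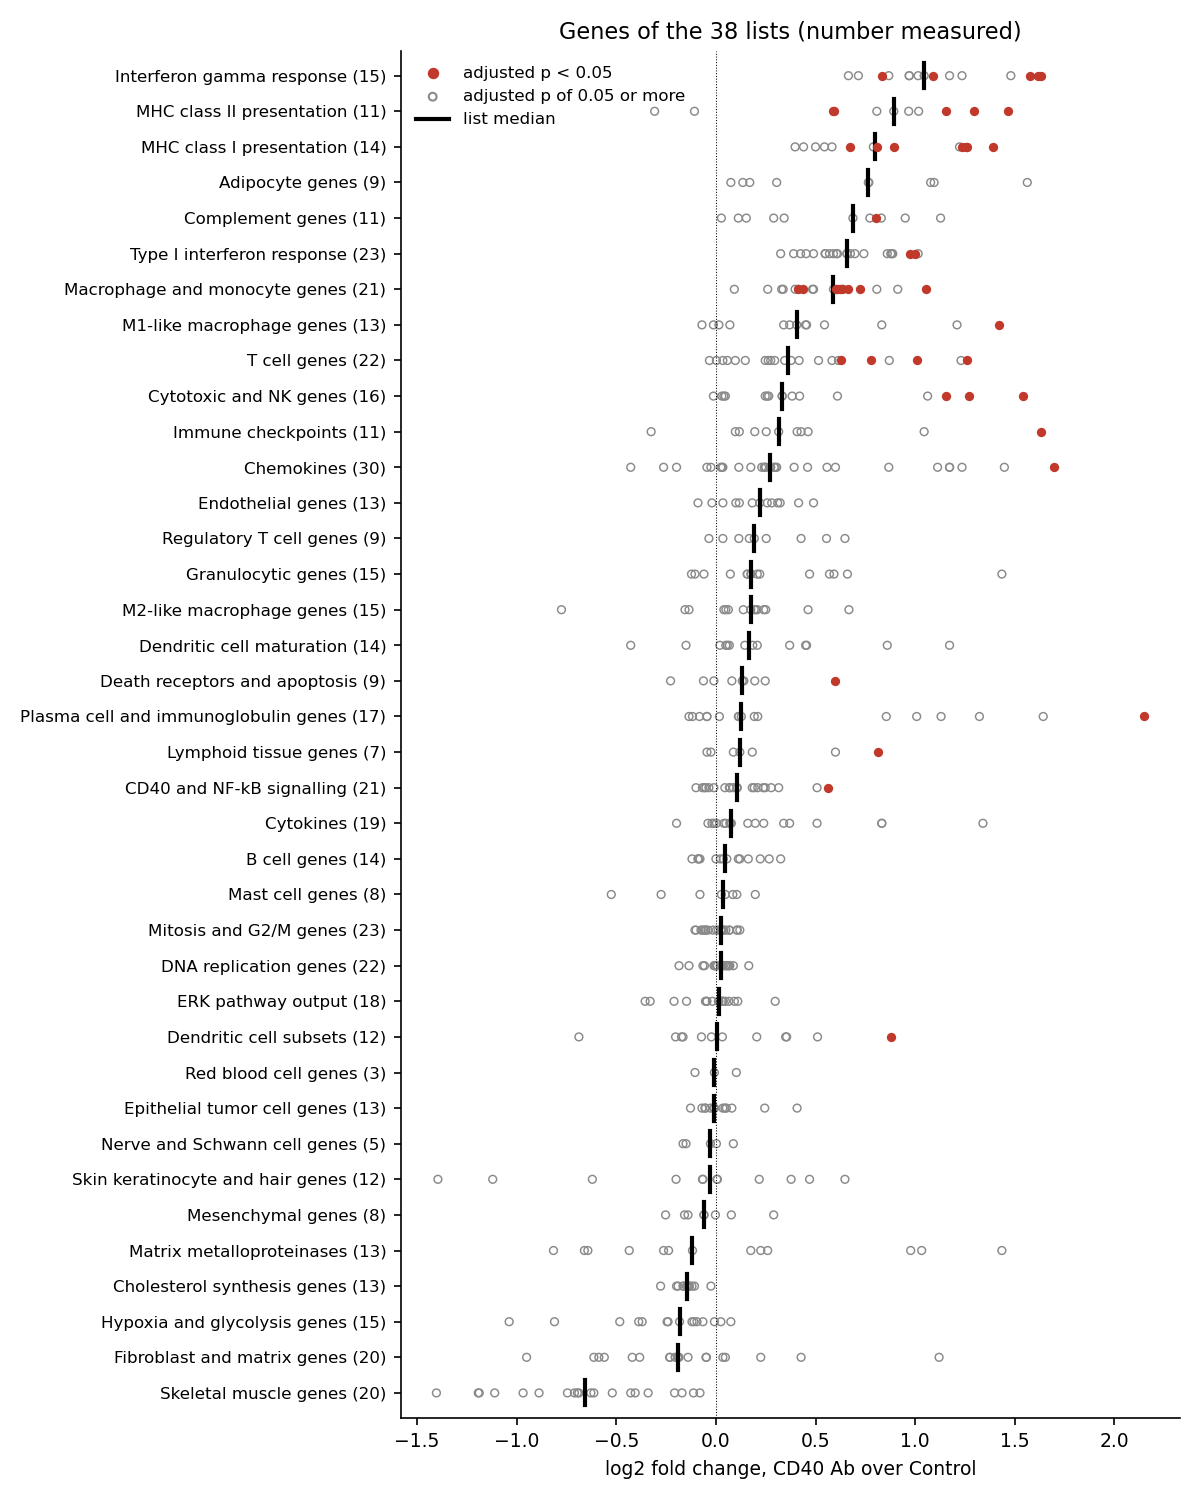
Log2 fold change of CD40 Ab over control (x axis) for the measured genes of 38 lists (rows, number measured in brackets), with called genes as filled red points, others as open grey points and list medians as black bars. Interferon gamma response genes have the highest median (1.04) and skeletal muscle genes the lowest (-0.66), and the lists for epithelial, mitosis, DNA replication and ERK genes lie near 0 with no filled point.

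Ptprc, which encodes CD45 and marks all leukocytes, read 9.66, 9.06, 9.36 and 9.53 in CD40 Ab tumors, against 8.33, 8.45, 8.22 and 8.72 in control tumors, a rise of 0.97 on the log2 scale (SE 0.14, adjusted p = 0.024). Of the 184 genes that rose, 51 rose by more than Ptprc and 131 by less. In RNA from whole tumor pieces, more cells of a type and more RNA per cell cannot be told apart, and the part of leukocyte number in the rises above was not tested.

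Among T cell genes 4 of 22 measured passed and 9 lay wholly higher, where 1.01% and 4.69% of all genes did so. The list median was 0.36. Cd8b1, the beta chain of the CD8 coreceptor, read 5.38, 5.47, 6.09 and 5.91 in CD40 Ab tumors, against 4.29, 4.42, 4.04 and 5.06 in control tumors (2.39-fold, SE of the log2 value 0.22, adjusted p = 0.0427). CD40 Ab tumors 3 and 4 were the highest. Cd3d, a chain of the T cell receptor complex, rose by 1.01 on the log2 scale, and Cd5, a T cell inhibitory receptor, by 0.63. Cd8a, the alpha chain, had a log2 fold change of 0.61 (95% interval 0.20 to 1.03, adjusted p = 0.236), and its groups overlapped between CD40 Ab tumor 1 at 5.68 and control tumor 3 at 5.74. Cd4 read 5.45 to 5.84 in CD40 Ab and 5.65 to 5.72 in control tumors (log2 fold change -0.03, 95% interval -0.22 to 0.16). It stayed within 5.45 to 6.03 over all 15 arrays. Foxp3, the transcription factor of regulatory T cells, differed by -0.04 (95% interval -0.23 to 0.16). Its probe set stayed within 4.27 to 4.74 over all 15 arrays, below the array medians of 5.16 to 5.24. A probe set this dim and flat may miss a change in RNA. Of 9 regulatory T cell genes 0 passed, with a median of 0.19, while 8 had a positive value. In 2 of the 9 the CD40 Ab tumors lay wholly higher, where 4.69% of all genes did so. The mean level of that list was 5.35 to 5.54 in CD40 Ab and 5.1 to 5.3 in control tumors, without overlap.

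Ms4a4b, a membrane protein of T cells, read 7.16, 6.40, 7.48 and 7.58 in CD40 Ab tumors, against 4.83, 5.11, 4.52 and 5.80 in control tumors, a rise of 4.26-fold (log2 fold change 2.09, SE 0.30, adjusted p = 0.024). Its other, dim probe set had a log2 fold change of 0.09, and the mean over both was 1.09. Ccl5, a chemokine made by activated T cells and other leukocytes, read 8.63, 8.36, 8.71 and 9.36 in CD40 Ab tumors, against 7.33, 7.27, 6.67 and 7.01 in control tumors. It was the only one of 30 measured chemokine genes to pass (3.24-fold, SE of the log2 value 0.21, adjusted p = 0.0199), and the median of that list was 0.27. In 6 of the 30 the CD40 Ab tumors lay wholly higher, where 4.69% of all genes did so. The list mean was 7.22 to 7.55 in CD40 Ab and 6.94 to 6.99 in control tumors, without overlap. For both Ms4a4b and Ccl5 each CD40 Ab tumor lay above each control tumor, as in all called genes that rose.

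Of the cytotoxic and natural killer genes 3 of 16 passed, where 1.01% of all genes did, with a median of 0.33. Nkg7, a granule protein of cytotoxic lymphocytes, read 6.93, 6.65, 7.23 and 7.38 in CD40 Ab tumors, against 5.68, 5.55, 4.70 and 6.09 in control tumors (2.91-fold, adjusted p = 0.0397). Gzmb, the serine protease granzyme B, read 7.17 to 8.14 in CD40 Ab and 5.98 to 6.64 in control tumors (2.41-fold, adjusted p = 0.0442). Ifng, which encodes interferon gamma, read 4.90, 4.97, 4.94 and 5.65 in CD40 Ab tumors, against 3.98, 4.00, 3.59 and 4.27 in control tumors (2.23-fold, SE of the log2 value 0.19, adjusted p = 0.0313). CD40 Ab tumor 4 stood above the other 3. Prf1, the pore-forming protein perforin, differed by 0.04 (95% interval -0.18 to 0.26).

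Jchain and a kappa segment rose, while no gene of the B cell list passed. Jchain, which joins the chains of polymeric IgA and IgM, had the second largest rise. It read 5.60, 5.78, 4.65 and 6.57 in CD40 Ab tumors, against 3.06, 4.06, 3.52 and 3.36 in control tumors (4.44-fold, log2 fold change 2.15, SE 0.35, adjusted p = 0.0332). Igkv8-30, a kappa light chain variable segment whose probe set can also bind transcripts of related segments, read 7.00, 6.90, 5.93 and 7.47 in CD40 Ab tumors, against 4.82, 5.02, 5.11 and 4.64 in control tumors (3.80-fold, SE of the log2 value 0.27, adjusted p = 0.0225). In both genes CD40 Ab tumor 4 was highest and CD40 Ab tumor 3 lowest of the treated tumors, an order unlike that of Cd8b1 and Gzmb, where tumor 3 was the highest.

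Ighm, the mu heavy chain, read 8.16, 8.24, 7.81 and 8.90 in CD40 Ab tumors, against 6.05, 7.59, 6.40 and 6.50 in control tumors and missed the threshold (3.12-fold, 95% interval of the log2 value 0.93 to 2.36, adjusted p = 0.0594). Control tumor 2 stood above the other controls. Jchain was the only call among 17 measured plasma cell and immunoglobulin genes, with a median of 0.13. In 4 of the 17 the CD40 Ab tumors lay wholly higher, where 4.69% of all genes did so. The mean level of that list was 6.42 to 6.83 in CD40 Ab and 6.05 to 6.16 in control tumors, without overlap. In the same list Prdm1, Xbp1 and Mzb1, genes of the plasma cell programme, had log2 fold changes of -0.14, 0.12 and 0.19. In B cell genes 0 of 14 passed, 2 had an unadjusted limma p under 0.05 (11.5% of all genes did), the median was 0.05, and the defining markers Ms4a1, Cd79a and Cd79b differed by 0.06, -0.08 and 0.02. Pigr, the epithelial receptor that carries polymeric immunoglobulin, read 6.45, 7.79, 7.99 and 8.05 in CD40 Ab tumors, against 6.99, 4.65, 7.07 and 7.05 in control tumors, with wide overlap (adjusted p = 0.549). Ltb, which encodes lymphotoxin beta, rose by 1.76-fold (adjusted p = 0.0449), 1 of 7 measured lymphoid tissue genes, where 1.01% of all genes rose. The median of that list was 0.12.

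Macrophage and monocyte genes gave the most calls of any list, 9 of 21, with a median of 0.59. Of the 21, 17 lay wholly higher in CD40 Ab tumors. Over all genes, 1.01% were called higher and 4.69% lay wholly higher. Aif1, a calcium-binding protein of macrophages also known as IBA1, read 8.42, 8.10, 8.13 and 8.53 in CD40 Ab tumors, against 7.26, 7.13, 7.11 and 7.46 in control tumors (2.08-fold, SE of the log2 value 0.12, adjusted p = 0.0186). The genes for the 3 chains of complement C1q rose by like amounts, C1qa by 0.62, C1qb by 0.63 and C1qc by 0.67 on the log2 scale. Other members that passed were Tyrobp and Fcer1g, signalling adaptors of myeloid receptors, Fcgr3, an Fc receptor for IgG, Lyz2, a lysozyme, and Mertk, a receptor for apoptotic cells. Adgre1, which encodes a surface marker of mouse macrophages, read 7.16 to 7.55 in CD40 Ab and 6.81 to 7.22 in control tumors and did not pass (adjusted p = 0.27).

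Chil1, a secreted chitinase-like protein of macrophages, neutrophils and epithelial cells, had the smallest p of all named genes. It read 7.24, 6.39, 6.44 and 6.76 in CD40 Ab tumors, against 4.58, 5.09, 4.58 and 4.82 in control tumors (3.84-fold, log2 fold change 1.94, SE 0.19, adjusted p = 0.0186). Fpr2, a formyl peptide receptor of phagocytes, rose by 2.68-fold (adjusted p = 0.0262), the single call among 13 measured genes linked to M1-like macrophages, which had a median of 0.40. In 3 of the 13 the CD40 Ab tumors lay wholly higher, where 4.69% of all genes did so. The list mean was 5.94 to 6.35 in CD40 Ab and 5.55 to 5.63 in control tumors, without overlap. Nos2, the inducible nitric oxide synthase of the same list, differed by 0.01 (95% interval -0.27 to 0.30) and stayed within 4.53 to 5.10 over all 15 arrays. Genes linked to M2-like macrophages gave 0 calls of 15 with a median of 0.17, and 12 had a positive value. In 2 of the 15 the CD40 Ab tumors lay wholly higher and in 1 wholly lower, where 4.69% and 3.00% of all genes did so. Mrc1, which encodes the M2-like marker CD206, read 10.00, 9.77, 9.23 and 9.02 in CD40 Ab tumors, against 9.60, 9.32, 9.67 and 9.27 in control tumors, and Arg1, arginase 1, differed by 0.24 (95% interval -0.33 to 0.81).

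Granulocytic genes gave 0 calls of 15 with a median of 0.18 and a largest value of 1.435. Of the 15, 12 had a positive value, where 48.5% of all genes did. In 1 of the 15 the CD40 Ab tumors lay wholly higher, where 4.69% of all genes did so. S100a8, a calprotectin subunit of neutrophils, differed by 0.59 (95% interval 0.11 to 1.07, adjusted p = 0.367). Ly6g was not analysed here. Of the complement genes outside C1q, Cfp, the positive regulator properdin, rose by 1.75-fold (adjusted p = 0.0186), 1 of 11, and the median of that list was 0.69. In 4 of the 11 the CD40 Ab tumors lay wholly higher, where 4.69% of all genes did so. The other probe set of Cfp had a log2 fold change of 0.00, and the mean over both was 0.40 and did not pass (adjusted p = 0.186). Fas, a death receptor, rose by 1.51-fold (adjusted p = 0.0464), 1 of 9 genes of its list, where 1.01% of all genes rose. In cytokine genes 0 of 19 passed, with a median of 0.08 and a largest value of 1.34. In 3 of the 19 the CD40 Ab tumors lay wholly higher, where 4.69% of all genes did so. The list mean was 6.20 to 6.39 in CD40 Ab and 5.92 to 6.08 in control tumors, without overlap.

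Several gene families rose in more than 1 member. These families were picked after the values were seen, so their counts are descriptions. Over all genes, 1.01% were called higher and 4.69% lay wholly higher. Gimap genes encode GTPases of lymphocytes, and 5 of 8 measured rose, by 0.58 to 1.38 on the log2 scale, and Gimap5 at -0.01 stood apart. Of 17 measured Ms4a genes, Ms4a4b, Ms4a6b, Ms4a6c and Ms4a6d rose, and 8 lay wholly higher. Both measured members of the Clec4a group of myeloid lectins rose, Clec4a2 by 0.61 and Clec4a3 by 1.17. Of the phagocyte NADPH oxidase genes Cybb, Ncf1, Ncf4 and Rac2 rose by 0.64 to 0.83, while Cyba did not pass at 0.12. Of the 184 genes that rose, 141 were in none of the 38 lists.

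Few genes fell. Prss35, a secreted serine protease-like protein, read 5.40, 5.83, 6.13 and 5.36 in CD40 Ab tumors, against 7.06, 6.79, 7.27 and 7.19 in control tumors, a fall to 0.38 of the control signal (log2 fold change -1.40, SE 0.17, adjusted p = 0.0199). S100g, a calcium-binding protein also called calbindin-D9k, read 6.42 to 7.29 in CD40 Ab and 7.63 to 7.99 in control tumors (log2 fold change -0.96, adjusted p = 0.0394). Lama2, the laminin alpha 2 chain of the basement membrane, read 5.31 to 5.95 in CD40 Ab and 6.23 to 6.55 in control tumors (log2 fold change -0.88, adjusted p = 0.0314). All 3 genes were lower in each CD40 Ab tumor than in each control tumor, which was a condition for naming the largest falls.

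Klhl30, a kelch-like family member, had the smallest p of the falls, at 6.28, 6.25, 6.41 and 6.03 in CD40 Ab tumors, against 7.03, 7.05, 7.05 and 6.96 in control tumors (log2 fold change -0.78, SE 0.08, adjusted p = 0.0186). Tbx3, a T-box transcription factor, fell by 0.65 (adjusted p = 0.0449), and of its 4 other, dimmer probe sets 3 had log2 fold changes of 0.00 to 0.15 and 1 of -0.37, none past the threshold. The other falls were Garnl3 by 0.50, Ulbp1, a ligand of the activating receptor NKG2D, by 0.45 (adjusted p = 0.0314), Cnksr2, a scaffold protein, by 0.41 and Fam199x by 0.36. As means over their probe sets, Fam199x, Cnksr2 and Tbx3 did not pass (log2 fold changes -0.23, -0.28 and -0.15).

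Lists of tumor cell programmes held no gene past the threshold. Of 13 epithelial tumor cell genes 0 passed (median -0.01), and Krt19, a keratin of pancreatic duct and PDA cells, read 13.05 to 13.21 in CD40 Ab and 13.05 to 13.23 in control tumors (log2 fold change -0.03, 95% interval -0.18 to 0.12). Of 18 genes of ERK output 0 passed (median 0.01), and Dusp6, a phosphatase that ERK induces, differed by 0.03 (95% interval -0.12 to 0.19). Mitosis and G2/M genes gave 0 of 23 (median 0.03, range -0.10 to 0.12) and DNA replication genes 0 of 22 (median 0.02). Mki67, the proliferation marker Ki-67, read 9.94 to 10.46 in CD40 Ab and 10.01 to 10.60 in control tumors (log2 fold change -0.10, 95% interval -0.42 to 0.22).

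Stromal and matrix lists gave no calls either. Fibroblast and matrix genes had a median of -0.19 with 0 of 20, and Col1a1, the alpha 1 chain of type I collagen, differed by -0.38 (95% interval -0.73 to -0.03, adjusted p = 0.445). Matrix metalloproteinases and their inhibitors had a median of -0.12 with 0 of 13, and a range of -0.815 to 1.435. In 3 of the 13 the CD40 Ab tumors lay wholly higher and in 2 wholly lower, where 4.69% and 3.00% of all genes did so. Mmp13, a collagenase, read 11.12, 9.77, 11.41 and 10.20 in CD40 Ab tumors, against 11.29, 11.41, 11.28 and 11.09 in control tumors (adjusted p = 0.539). CD40 Ab tumors 2 and 4 were low and the other 2 at the level of the controls. Endothelial genes had a median of 0.22 with 0 of 13, hypoxia and glycolysis genes -0.18 with 0 of 15, and cholesterol synthesis genes -0.15 with 0 of 13. Values were positive in 11 of 13, 2 of 15 and 0 of 13 of these genes, where 48.5% of all genes were positive. The CD40 Ab tumors lay wholly higher in 2 endothelial genes and wholly lower in 1 hypoxia and glycolysis gene. Over all genes, 4.69% lay wholly higher and 3.00% wholly lower.

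Tumor pieces from the flank can hold neighbouring tissue. The mean level of 20 skeletal muscle genes ran from 4.86 to 6.51 in CD40 Ab and from 4.86 to 6.93 in control tumors (list median of the log2 fold changes -0.66, 0 called). The mean of 12 skin and hair genes was 4.73 to 6.20 in CD40 Ab and 4.68 to 6.29 in control tumors, highest in CD40 Ab tumor 3 and control tumor 4 (median -0.03, 0 called). The mean of 9 adipocyte genes was 6.15 to 7.90 in CD40 Ab and 6.11 to 6.52 in control tumors, with CD40 Ab tumors 1, 2 and 4 above all controls (median 0.77, 0 called). The part of neighbouring tissue in the differences was not tested.

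The CD40 Ab effect could be read a second time in mice given MEKi, from the 4 Combination and 3 MEKi arrays, which share no array with the comparison above. There the animal numbers of the Combination mice were all under 10000 and those of the MEKi mice all from 10000, so treatment and number range cannot be told apart. Of the 184 genes that rose with CD40 Ab alone, 167 (90.8%) were also higher in Combination than in MEKi tumors, where 51.5% of all genes were, with a median log2 fold change of 0.42 against 0.01 over all genes. That median was 0.67 without MEKi tumor 1, 0.13 without MEKi tumor 2 (128 of 184 positive) and 0.27 without Combination tumor 2. Of the 184, 9 passed the threshold there, against 251 genes (1.38%) called higher and 482 (2.65%) called lower overall. Apol6, Il12rb1, a chain of the interleukin-12 receptor, and Cfp were among these 9 genes, with log2 fold changes of 1.92, 1.55 and 1.11 (adjusted p = 0.0135, 0.0198 and 0.0441).

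Jchain in mice given MEKi read 4.14, 7.48, 7.00 and 5.53 with CD40 Ab (Combination), against 4.28, 2.42 and 3.11 without (MEKi), a log2 fold change of 2.77 with overlap between Combination tumor 1 and MEKi tumor 1 (adjusted p = 0.122). Ccl5 read 9.42, 10.66, 9.70 and 9.41 in Combination tumors, against 8.92, 6.38 and 7.50 in MEKi tumors (log2 fold change 2.20, adjusted p = 0.0896). MEKi tumor 1 was the highest of its group in both, and its B cell list averaged 6.59, against 4.57 and 4.67 in MEKi tumors 2 and 3. Of the 9 genes that fell with CD40 Ab alone, Prss35 and Lama2 were also called lower in Combination than in MEKi tumors. Prss35 read 8.22, 7.68, 7.58 and 8.77 in Combination tumors, against 11.39, 10.07 and 10.43 in MEKi tumors (log2 fold change -2.57, SE 0.37, adjusted p = 0.0137). Lama2 had a log2 fold change of -1.61 there (adjusted p = 0.0256).

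**Figure D5:**
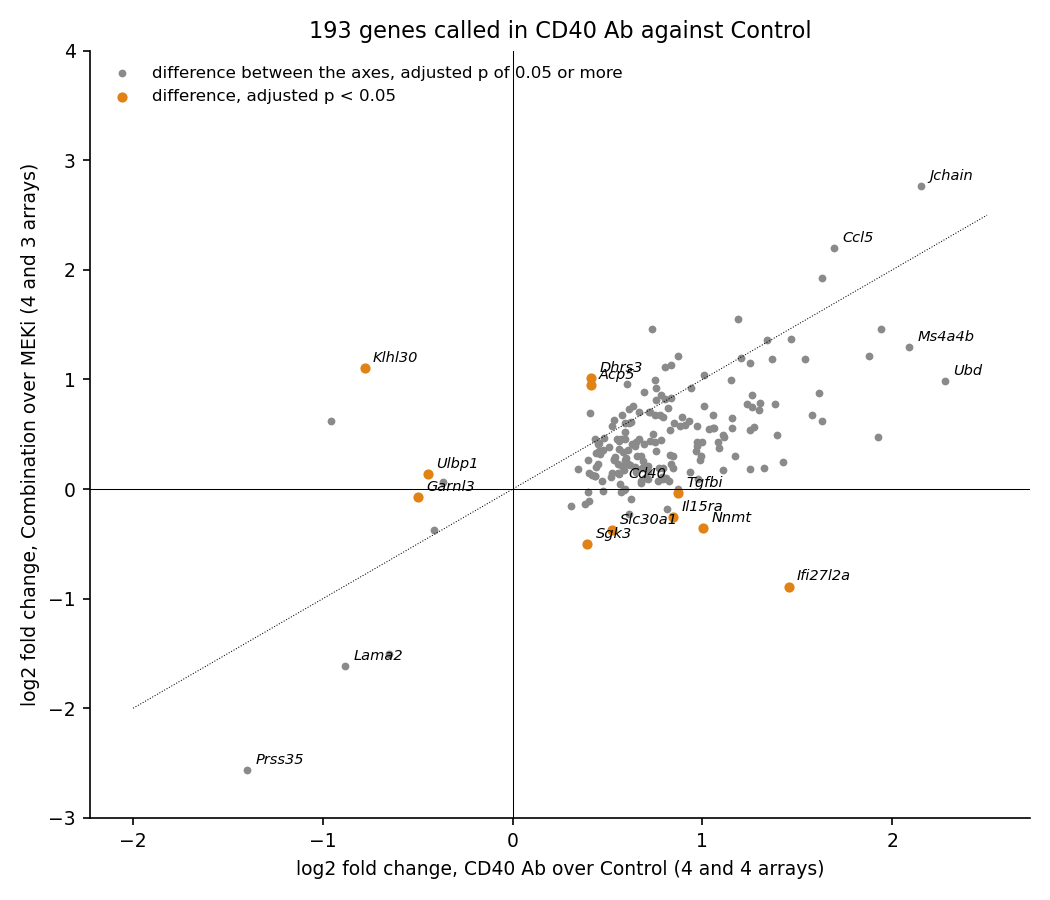
Log2 fold change of CD40 Ab over control (x axis) and of Combination over MEKi (y axis) for the 193 genes called in CD40 Ab against control, with genes whose difference between both values passed an adjusted p of 0.05 in orange (11) and the dotted line marking equal values. Most genes to the right of 0 also lie above 0 (167 of 184), Ifi27l2a lies at 1.46 and -0.89, and Klhl30 at -0.78 and 1.10.

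The difference between the CD40 Ab effects with and without MEKi was tested across all 15 arrays. Skin and hair genes averaged 4.73 to 5.52 in Combination and 6.93 to 7.66 in MEKi tumors, and the part of neighbouring skin in these differences was not tested. The difference between effects was called for 829 genes (4.56%), and for 11 of the 193 genes called with CD40 Ab alone (5.70%). Those 193 genes were chosen by the CD40 Ab effect that the difference subtracts. This choice leans the difference to negative values for rises and to positive values for falls. The signs are therefore given as descriptions. Number range and treatment also cannot be told apart in the Combination and MEKi mice. Among the genes that rose with CD40 Ab alone, 6 had a lower effect with MEKi (Ifi27l2a, Nnmt, Il15ra, Tgfbi, Slc30a1 and Sgk3) and 2 a higher one (Acp5 and Dhrs3). Ifi27l2a read 9.67 to 10.18 in Combination and 10.53 to 11.34 in MEKi tumors, against 8.95 to 9.76 in CD40 Ab and 7.78 to 8.23 in control tumors, a difference of effects of -2.35 (SE 0.28, adjusted p = 0.000882). Il15ra, the interleukin-15 receptor alpha chain, gave -1.10 (SE 0.22, adjusted p = 0.0143). Klhl30 went the other way, at 7.01 to 7.58 in Combination and 5.88 to 6.46 in MEKi tumors, with a difference of 1.88 (SE 0.19, adjusted p = 0.000345). Cd40 itself had a log2 fold change of 0.04 in Combination against MEKi, and its difference of -0.52 did not pass (SE 0.28, adjusted p = 0.367).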

How the data were processed

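Whole pieces of PDA30364 tumors were profiled on the Affymetrix mouse whole-genome expression array, 1 array per animal. The authors deposited log2 values after RMA, which subtracts background, quantile normalizes the arrays together and summarizes the probes of a probe set, so levels of different probe sets are not comparable and differences of dim probe sets are compressed. No columns were left unused, and the array medians ran from 5.16 to 5.24. The number of arrays limits the precision.

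Of 45101 probe sets, 64 controls were left out and 45037 tested. A gene stands for its probe set with exactly 1 symbol (34945 probe sets, 932 with several and 9160 with none) and the highest mean over the 15 arrays, which gave 18193 genes. Groups were compared with limma (version 3.58.1, R 4.3.3; lmFit and eBayes), p-values being adjusted by Benjamini-Hochberg across every tested probe set and called under 0.05. CD40 Ab was set against control on 8 arrays, Combination against MEKi on 7, and the difference between both effects on 15. Single measures per array were tested by exact 2-sided permutation. The scripts were tested on simulated data. Named genes were the 15 largest rises and up to 10 largest falls (9 were called) among called genes without overlap, up to 3 called members of each of 38 lists by p, 37 genes of interest whatever their values (34 measured), and the 5 highest and 5 lowest called differences with MEKi. Others named (such as Ptprc, H2-Oa, Il12rb1 and the members of families) were chosen after their values were seen. Of the 592 gene names in the lists, 533 were measured. Members and lists were chosen with earlier results of these data known. Promoters came from RefSeq. Alternatives covered the samples fitted, the prior, array weights, normalization, centring, filters, the choice of probe set, thresholds, the replicate block, the animal number range and leaving out each array.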

Additional observations from a re-analysis of the deposited data

Results flagged for a closer look

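Among the 84 named genes, 168 groups of 4 arrays were searched for a single array far from the other 3, and 11 stood out, where chance gives about 1 in 20 groups. In CD40 Ab tumor 1 the log2 signal was 6.45 for Pigr (others 7.79 to 8.05). In CD40 Ab tumor 2 the log2 signal was 10.97 for Dusp6 (others 10.77 to 10.79), 13.21 for Krt19 (others 13.05 to 13.07). In CD40 Ab tumor 3 the log2 signal was 4.52 for Cd40lg (others 4.55 to 4.55), 8.08 for Lgals7 (others 5.00 to 5.41), 4.28 for Ulbp1 (others 4.42 to 4.43). In CD40 Ab tumor 4 the log2 signal was 5.65 for Ifng (others 4.90 to 4.97). In control tumor 2 the log2 signal was 4.65 for Pigr (others 6.99 to 7.07). In control tumor 4 the log2 signal was 5.56 for Krt35 (others 2.93 to 3.15), 4.29 for Krtap19-3 (others 2.71 to 2.80), 5.40 for Krtap16-3 (others 2.16 to 2.42).

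The CD40 Ab effect differed between tumors with and without MEKi, by the limma test of the difference, for 22 named or called genes. Genes named for extreme differences, or called in CD40 Ab against control, were chosen on values that enter this test. The log2 difference was negative for Krtap16-3 (-5.13), Lgals7 (-4.09), Krtap19-3 (-3.96), Krt35 (-3.82), Krtap19-2 (-3.73), Ifi27l2a (-2.35), S100a8 (-1.95), Nnmt (-1.36), Il15ra (-1.10), Tgfbi (-0.91), Slc30a1 (-0.90), Sgk3 (-0.90). It was positive for Garnl3 (0.42), Acp5 (0.54), Ulbp1 (0.58), Dhrs3 (0.60), Klhl30 (1.88), Stra6 (2.21), Myzap (2.26), Col11a1 (2.27), Spon2 (2.38), Sema4f (2.48). The 5 lowest values belong to genes of hair and skin, and the mean of the skin and hair list was 4.73 to 5.52 in Combination, 6.93 to 7.66 in MEKi, 4.73 to 6.20 in CD40 Ab and 4.68 to 6.29 in control tumors. The part of skin in these values was not tested.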

How the results depend on the processing

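The 323 probe sets called in CD40 Ab against control became 42 (18 genes) in the fit of all 15 arrays, 189 with the mean over the probe sets of a gene, 86 (48 genes) with a log2 fold change of at least 1, 0 at an adjusted p under 0.01 and 14 (8 genes) in the animals under 10000 alone, and the other planned processing choices gave 223 to 396 probe sets, apart from those that follow. Leaving out 1 array gave 0 to 320 probe sets and 0 to 197 genes, with 0 calls without CD40 Ab replicate 4 or control replicate 1, 2 or 3. The replicate numbers do not pair the animals (correlations of same-numbered deviations 0.0518, -0.0596, 0.149 and 0.121). With the replicate block, 217 probe sets and 131 genes were called, 108 of them among the 193, and 1171 probe sets for the difference with MEKi, which was 1441 without the block. Leaving out 1 array gave 745 to 2072 probe sets for that difference, and 6 to 18 of the 193 genes. In Combination against MEKi, leaving out 1 array, an alternative chosen after seeing the data, gave 431 to 2089 probe sets, where all 7 arrays gave 1264. No log2 fold change of a called gene turned its direction under any alternative run on CD40 Ab against control. The prior and the thresholds do not change a log2 fold change. Leaving out or weighting arrays could not turn one either, because the arrays of called genes did not overlap. Over the named genes and all alternatives, 466 values kept their direction and lost the threshold, 17 gained it and 1341 stayed on their side, and 14 list medians moved by more than the spread between replicates while 821 did not. The causes of these shifts were not tested. The number of arrays and the compressed scale of dim probe sets limit what could be called.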

Other observations

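Outside the comparisons above, the genes that rose with CD40 Ab alone were also read on each array against the control mean. Their median stood at 0.92, 1.48, 1.05 and 0.75 in Combination tumors, 0.84, 0.60, 0.66 and 0.83 in CD40 Ab tumors, and 1.20, 0.10 and 0.56 in MEKi tumors. Control tumors lay at -0.03, 0.01, -0.15 and 0.15, and MEKi tumor 1 stood above all CD40 Ab tumors.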
